A study of Citrus sinensis with 48 samples.

Results

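In leaves of Cleopatra mandarin, high light and water stress given together did not change the transcriptome by the sum of what each did alone. The quantity described here is the departure of the combination from that sum: the log2 level under water stress and high light (WS+HL), minus the levels under water stress (WS) and under high light (HL), plus the level in control plants (CT). A departure of 0 means that the changes of the single stresses added up on the log2 scale. It equals the light response of plants under water stress minus the light response of watered plants. The departure was taken over the CT, WS, HL and WS+HL groups of Cleopatra mandarin, 3 libraries each, 12 of the 48 libraries of the series. All 23721 genes with enough reads to be tested, of 30136 in the deposited table, were followed.

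The series profiled leaf RNA of 2 citrus rootstock genotypes under 8 treatments that combine lack of water, high light and heat. Every group used here is the genotype Cleopatra mandarin (Citrus reshni), shortened to Cleo, with no heat treatment: control, water stress, high light, and water stress with high light. The same 4 treatments of the genotype Carrizo citrange (Car) serve as the comparison. How long or how strong each stress was, the air temperature and the age of the plants were not given in the sources used here, and the replicates are described only as biological, so p-values measure the spread between these samples. The organism recorded for all libraries is sweet orange, whose gene models were used for counting, so Cleo reads that differ from sweet orange may be counted less well.

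Leaves under strong light absorb more energy than carbon fixation uses, and they warm, while the transpiration that cools them stops when drought closes the stomata. Heat stress transcription factors switch on small heat shock proteins, HSP70, HSP90 and ClpB, the chaperones that hold, refold and disaggregate damaged proteins. Drought acts largely through abscisic acid, which closes stomata and induces dehydrins, late embryogenesis abundant proteins and raffinose-type sugars.

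The 12 libraries held between 42121411 and 58265477 counts, and 21139 to 21875 genes were detected in each. The first principal component of their log2 CPM (counts scaled to a common library total) held 67.2% of the variance and parted the libraries with water stress from those without. The second, with 11.6%, put CT at one end and HL at the other, with WS and WS+HL between them. On that axis CT lay at 58.4 to 68.6, HL at -68.5 to -58.6, WS at 9.3 to 11.4 and WS+HL at -11.5 to -10.6. One library, CT replicate 3, carries an unexplained mark in its column name, as do 11 of the 48 in all. It had the highest share of ribosomal RNA among the 12, 3.75%, followed by WS+HL replicate 1 with 3.06%. The lowest share was 0.662%. Correlations of log2 CPM within a group were 0.984 to 0.991. Counts set CT replicate 3 apart: the chi-square per gene, near 1 for counting noise alone, was 92.95 and 132 against the other CT libraries, 10.9 between those, and 5.81 to 37.1 in the WS, HL and WS+HL groups. This library enters each departure.

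High light with water stress left 2918 genes above the sum and 3060 below it in Cleo. These genes are called, meaning an edgeR quasi-likelihood p, adjusted over all genes tested, under 0.05, and they are 25.2% of the genes tested. Of them 882 above and 971 below departed at least 2-fold. The median departure over all tested genes was 0 on the log2 scale, and 927 tested genes had no count in any of the 12 libraries. Of the 17743 genes not called, 16816 had a 95% interval and for 9681 of these it lay within 2-fold of the sum, so the rest cannot be said to be additive. Against a sum of changes in CPM itself, 2812 of the 2918 stayed above and 2997 of the 3060 below. For 592 called genes that linear sum was below 0. The linear sum lies below the log2 sum where both single changes go the same way, and above it where they go opposite ways. For part of the calls the side was thus fixed by arithmetic, so these counts do not show how far the scale sets the calls. Without CT replicate 3, 4779 genes were called, 4505 of them also called with all libraries.

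**Figure D1:**
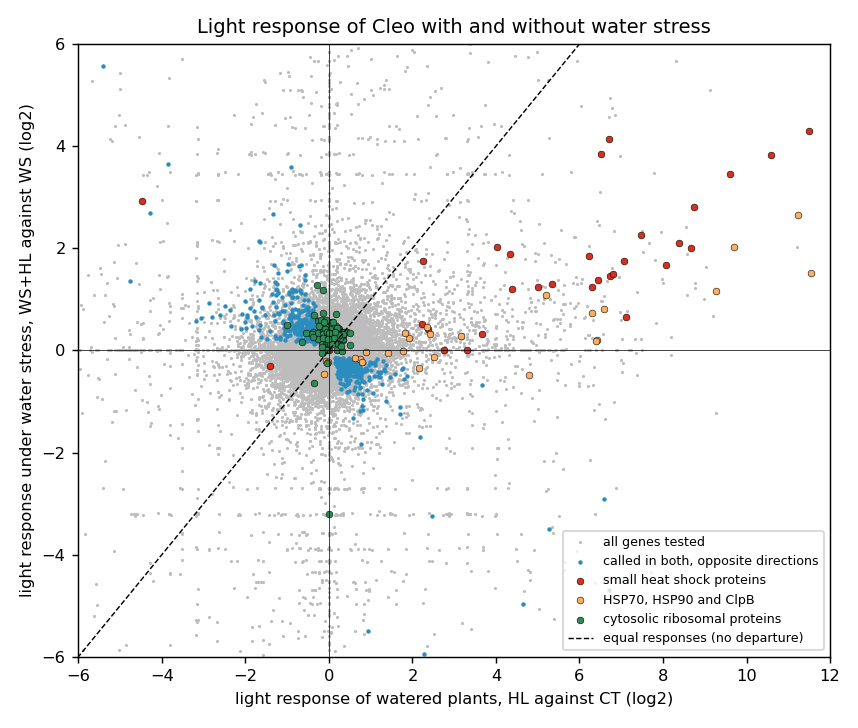
Light response of each tested gene in Cleo, watered plants (HL against CT, log2) on the horizontal axis and plants under water stress (WS+HL against WS, log2) on the vertical. Each point is 1 gene, 98 genes lie outside the axes, and small heat shock proteins and HSP70, HSP90 and ClpB genes sit mostly to the lower right of the line of equal responses, while ribosomal protein genes lie mostly between 0 and 1 on the vertical axis.

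Water-stressed Cleo plants answered high light with fewer called changes than watered plants. In watered plants 4191 genes rose and 4272 fell under high light (35.7% of genes tested), while under water stress 2414 rose (10.2%) and 2363 fell (9.96%), 20.1% in all. Of the 4191 genes that rose in watered plants, 972 also rose under water stress, 307 fell and 2912 were not called. Of the 4272 that fell, 834 also fell, 316 rose and 3122 were not called. Of the 4777 genes called under water stress, 2348 were not called in watered plants, 1126 up and 1222 down. Without the marked libraries 3136 genes, in place of 1806, were called in the same direction in both water states. In that run more than the 2363 genes also fell under water stress, a count given in the closing section, so the size of this contrast depends on the libraries fitted. The 2 light responses share no library, and their correlation across all tested genes was 0.0845, or 0.194 across the genes called in watered plants, a description over genes that are not independent.

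Large light responses were mostly smaller under water stress. Of 1168 genes that rose at least 2-fold in watered plants, 124 did so under water stress, and the median response of the 1168 was 2.06 (log2) in watered plants and 0.22 under water stress. Of 844 genes that fell at least 2-fold, 22 fell as much under water stress, with medians of -1.47 and -0.04. Choosing genes on the watered response favours its median. The counts for plants under water stress depend on single libraries. Without WS+HL replicate 1, 1335 genes fell under high light and water stress against water stress. Without WS replicate 2, 1550 rose and 1408 fell, and the number called under water stress alone became 1319 (1307 without WS+HL replicate 1).

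Seen from the other side, the same departures left more of the larger response to water stress in place. Against CT, the combination changed 15386 genes (64.9%). Water stress raised 7403 genes and lowered 7933 at control light (64.7%), and raised 7332 and lowered 8182 under high light (65.4%). Of the 7403, 5851 also rose under high light and 366 fell. Of the 7933, 6336 also fell and 183 rose. Median responses were 0.83 and 0.76 (log2) for the genes that rose, and -1.18 and -1.09 for those that fell. The correlation of the 2 water stress responses across genes was 0.685.

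Heat shock genes lay deepest below the sum among the named genes. Each of the 8 genes named as furthest below the sum encodes a heat shock protein or an HSP70-type chaperone, and all rose steeply under high light in watered plants. Heat shock 70 kDa protein 5-like (LOC102625591) measured 0.692, 0.882 and 0.707 CPM in the 3 CT libraries, 4.497, 2.93 and 2.596 in WS, 1879.9, 1749.7 and 1869 in HL and 17.2, 22.4 and 23.6 in WS+HL. The 4 groups did not overlap, and HL stood far above the other 3. Its light response was 11.23 ± 0.21 (log2 ± SE) in watered plants and 2.66 ± 0.15 under water stress, so the departure was -8.57 ± 0.25 (adjusted p = 7.57e-28).

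Chaperone ClpB1 (LOC102620452), the disaggregase that rescues aggregated proteins, measured 63.8, 63.8 and 60.2 CPM in CT, 141, 141 and 139.5 in WS, 5138, 4768 and 4958 in HL and 217, 246 and 239.8 in WS+HL. Again only HL was high, and the groups did not overlap. The departure was -5.57 ± 0.11 (adjusted p = 4e-33). Heat shock protein 83 (LOC102628301), an HSP90, measured 124, 128 and 136 CPM in CT, 145, 154 and 154 in WS, 4854, 4497 and 4827 in HL and 303, 328 and 323 in WS+HL. Its departure was -4.11 ± 0.11 (adjusted p = 1.89e-28). Another HSP70, LOC102625888, rose under water stress alone as well, from 2.97 ± 0.491 CPM in CT (SD, n = 3) to 167 ± 20.8. It reached 1855 ± 76.2 in HL and 375 ± 12.5 in WS+HL, a departure of -8.11 ± 0.17 (adjusted p = 1.81e-32). Of 26 tested HSP70, HSP90 and ClpB genes, 23 were called below the sum and none above, against 12.9% of all tested genes below and 12.3% above. At an unadjusted p below 0.05 in edgeR 0 were above, and with DESeq2 0. Their median departure was -2.29. High light raised 23 in watered plants by a median of 2.38 over the list, and 12 under water stress, by a median of 0.19.

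Small heat shock proteins, which keep unfolding proteins from clumping, behaved likewise. Of 33 tested, 22 were below the sum, 1 was above, and the median departure was -4.04. High light raised 28 in watered plants (median 6.31) and 22 under water stress (median 1.67). Since 8 members had at most 3 counts in a group, the median was also taken with CPM held at 3 counts or more per library, which gave -4.06. The 18.2 kDa class I protein (LOC102621053) measured 5.71, 5.48 and 5.59 CPM in CT, 25.5, 25.7 and 23.6 in WS, 1956, 1776 and 1877 in HL and 99.99, 110.5 and 109 in WS+HL. The groups did not overlap and only HL was high. Its departure was -6.29 ± 0.20 (adjusted p = 1.54e-26). Others below the sum were a further small heat shock protein (LOC102630544, -7.22 ± 0.40), the mitochondrial 26.5 kDa protein (LOC102624529, -6.41 ± 0.30), the chloroplast small heat shock protein (LOC102608585, -5.28 ± 0.16) and the 17.4 kDa class III protein (LOC102627015, -4.38 ± 0.14). The single member above was the 15.4 kDa class V protein (LOC102612820, 1.1 ± 0.20), named after its values were seen, which high light lowered in watered plants. Reads shared between near-identical heat shock genes could be split by the counting, so values of single members are less certain than the list.

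**Figure D2:**
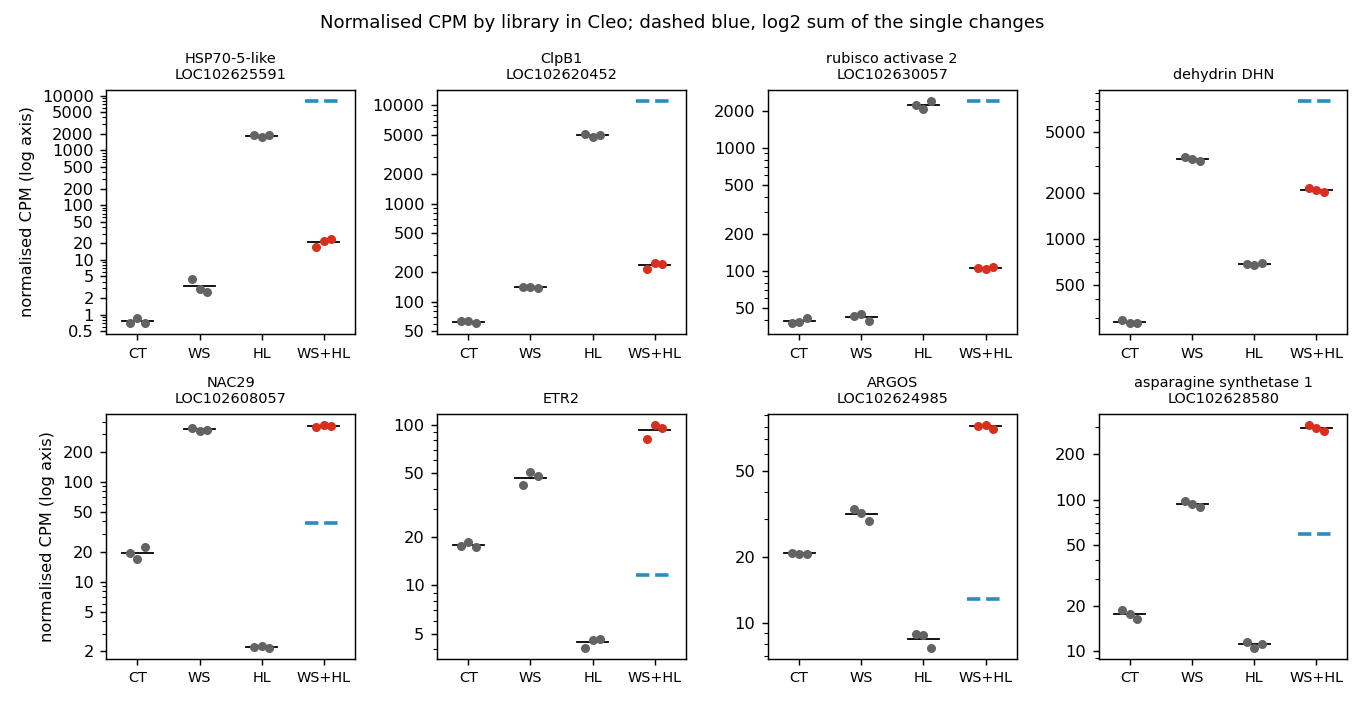
Normalised CPM of 8 genes in each of the 12 Cleo libraries on log axes, 1 point per library, with a black line at each group mean and a dashed blue line where the log2 sum of the single changes would put WS+HL. The WS+HL libraries lie below the dashed line in the first 4 genes and above it in the last 4.

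Some of the regulators and helpers of these chaperones followed, while 11 of 22 heat stress factors and 44 of 76 co-chaperones had no called departure. Heat stress transcription factor B-2a (LOC102626069) measured 67.6, 65.6 and 68.9 CPM in CT, 284, 275 and 259.95 in WS, 467, 436 and 451 in HL and 269, 271 and 273 in WS+HL. HL was highest, and WS and WS+HL overlapped. The departure was -2.75 ± 0.08 (adjusted p = 2.7e-28). Of 22 tested heat stress factors, 9 were below the sum and 2 above, of which 1 stayed above without CT replicate 2, HL replicate 1 or HL replicate 3. HSF30 (LOC102620157, -3.4 ± 0.14), A-7a (LOC102620280, -2.6 ± 0.11) and HSF24 (LOC102622704, -2.27 ± 0.09) were below. A-8 (LOC102609621, 0.78 ± 0.12) and the weakly expressed B-3-like factor (LOC102625986, 2.03 ± 0.64) were above, and both are named after their values were seen. The list's median departure was -0.87, or -0.49 with the floor of 3 counts, and -0.551 without WS+HL replicate 2 (-0.53 without WS replicate 3).

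Among 76 co-chaperones, 23 were below the sum and 9 above, with a median of -0.12. The activator of HSP90 ATPase (LOC102621083, -4.36 ± 0.09), the dnaJ protein ERDJ3A (LOC102617203, -5.04 ± 0.11), an HSP70-HSP90 organizing protein (LOC102624310, -3.66 ± 0.09) and a dnaJ homolog of subfamily B (LOC102619066, -3.47 ± 0.09) had the lowest p-values. Of 34 protein folding genes of the endoplasmic reticulum, 8 were below and none above (2 at an unadjusted p below 0.05, 2 with DESeq2), and the median was 0.02, turning to between -0.22 and -0.10 without CT replicate 2 or 3, HL replicate 3, WS+HL replicate 1 or 3, or WS replicate 3. A luminal-binding protein 5, the HSP70 of this compartment (LOC102609733), went from 1.15 ± 0.48 CPM in CT to 336 ± 10.8 in HL and was 6.72 ± 1.199 in WS and 8.05 ± 0.92 in WS+HL, a departure of -7.94 ± 0.32. The endoplasmin homolog (LOC102608412, -1.79 ± 0.08) and the calnexin homolog (LOC102617406, -1.64 ± 0.08), chaperones of secreted proteins, were below the sum too.

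**Figure D3:**
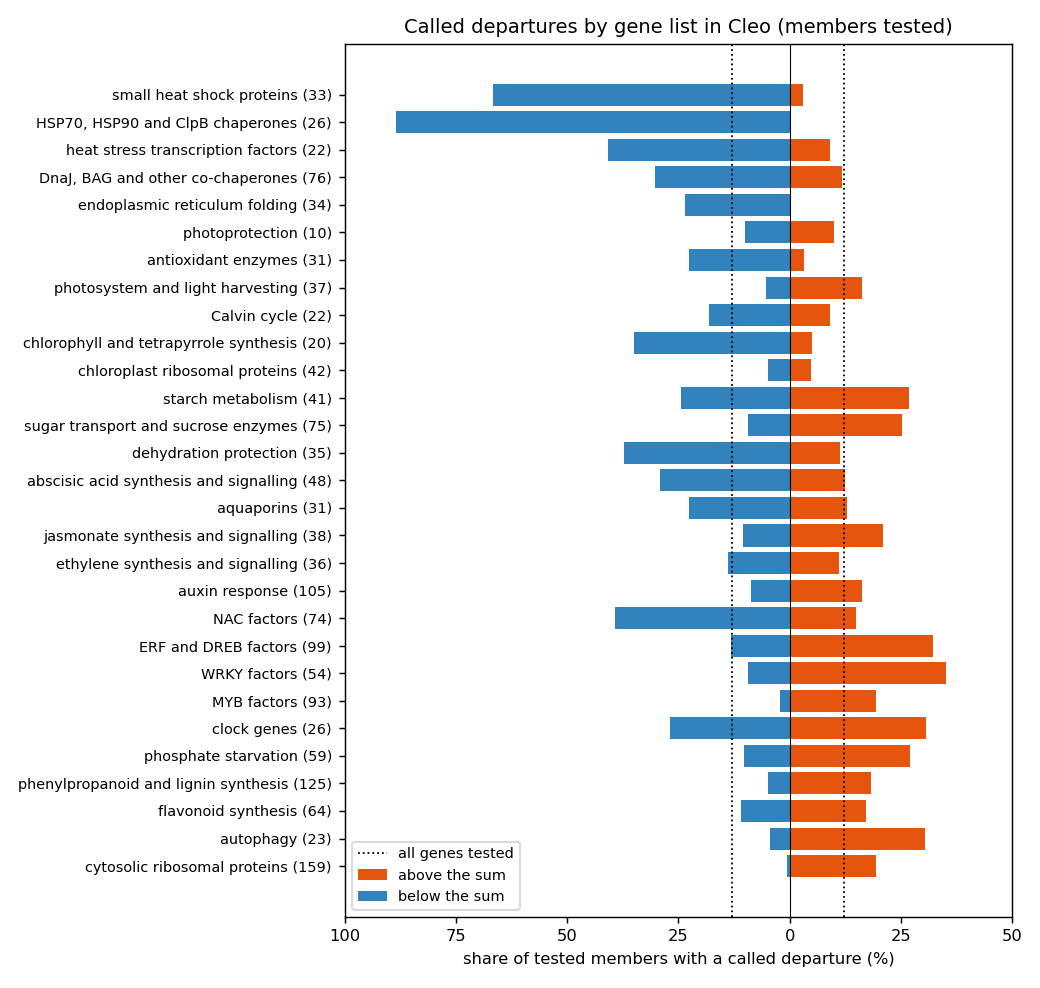
Share of tested members of each list (number in parentheses) called below the sum, to the left in blue, and above it, to the right in orange, in percent. The dotted lines mark all tested genes, 12.9% below and 12.3% above, and the HSP70, HSP90 and ClpB list reaches furthest to the left with 23 of 26.

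Among chloroplast genes, rubisco activase showed the pattern of the heat shock genes. Rubisco activase 2 (LOC102630057), which keeps the carbon-fixing enzyme active, measured 37.3, 38.3 and 41.4 CPM in CT, 43.1, 44.7 and 38.9 in WS, 2244, 2049 and 2389 in HL and 105, 103 and 108 in WS+HL. CT and WS overlapped, WS+HL lay above both, and HL was far above all. Its departure was -4.52 ± 0.11 (adjusted p = 1.07e-30). Of 22 tested Calvin cycle genes, 4 were below the sum (18.2%) and 2 above (9.09%), with a median of -0.12. Of all tested genes 12.9% were below and 12.3% above. Without the marked libraries 10 were below and 4 above (median -0.22), and none was above without CT replicate 3, WS replicate 1 or WS replicate 2. The others below included phosphoglycerate kinase (LOC102611457, -0.46 ± 0.13) and a ribose-5-phosphate isomerase (LOC102630826, -0.69 ± 0.17).

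Photosystem and light harvesting genes fell deeply under water stress (35 of 37, median -2.56). High light raised 21 of the 37 in watered plants and 26 under water stress, by medians of 0.35 and 0.56. Departures were called for 6 above and 2 below, with a median of 0.23. That count rests on single libraries, since 2 stayed above without CT replicate 3 (median 0.04) and 3 without HL replicate 2 or WS+HL replicate 1. The 2 below became 4 without CT replicate 3 and 8 without the marked libraries. Chlorophyll a-b binding protein 151 (LOC102610533) measured 2905 ± 610.4 CPM in CT, 130.4 ± 8.43 in WS, 3285 ± 158 in HL and 261 ± 25.7 in WS+HL, a departure of 0.82 ± 0.18 (adjusted p = 0.00056). A photosystem II psbY-like gene (LOC107176823) went the other way, with -2.88 ± 0.16. It alone of the list rose under water stress.

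Photoprotection genes had departures from -0.35 to 0.97. Of 10, 1 was above and 1 below, and the median was 0.09. High light raised 7 of them in watered plants and 7 under water stress. The early light-induced protein 1 gene LOC102626141, whose product binds free pigment under excess light, measured 30.4, 29.5 and 34.8 CPM in CT, 147, 137 and 141 in WS, 128, 105 and 125 in HL and 451, 391 and 419 in WS+HL. WS+HL was above all 9 other libraries, and WS and HL did not overlap. Its departure of -0.35 ± 0.18 was not called (adjusted p = 0.17), but was called without the marked libraries (-0.42, adjusted p = 0.000937). The xanthophyll cycle enzyme zeaxanthin epoxidase was below the sum in 1 copy (LOC102577984, -0.33 ± 0.08) and above in another (LOC112497075, 0.97 ± 0.36), and the second lost its call when single libraries were left out.

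Genes of chlorophyll synthesis rose under high light in watered plants (17 of 20) and, for 9 of 20, under water stress, and 7 were below the sum with 1 above (median -0.27). Protoporphyrinogen oxidase 1 (LOC102607324, -0.66 ± 0.07) and glutamyl-tRNA reductase 1 (LOC102624392, -0.55 ± 0.10), the committed step of the pathway, were below. The single member above was uroporphyrinogen-III C-methyltransferase (LOC102607259, 0.89 ± 0.15), which branches off towards siroheme.

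Of 19 genes of chlorophyll breakdown and senescence, 4 were below and 3 above, with 1 above when CT replicate 3, WS+HL replicate 1 or WS replicate 2 was left out. Those below are steps of the breakdown itself: pheophytinase (LOC102610088, -1.75 ± 0.09), STAY-GREEN (LOC102625350, -1.34 ± 0.10), chlorophyll b reductase NYC1 (LOC102617189, -0.72 ± 0.09) and pheophorbide a oxygenase (LOC102625487, -0.77 ± 0.15). STAY-GREEN rose from 16.2 ± 1.499 CPM in CT to 844 ± 22.2 under WS and 36.7 ± 1.91 under HL, and was 756 ± 23.9 under WS+HL.

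Of 31 antioxidant enzymes 7 were below the sum and 1 above, and 11 were below without the marked libraries. High light raised 18 in watered plants and 11 under water stress. Cytosolic ascorbate peroxidase 2 (LOC102622372), which removes hydrogen peroxide, measured 31.1 ± 5.88 CPM in CT, 25.97 ± 0.393 in WS, 166 ± 12.6 in HL and 44.6 ± 3.52 in WS+HL, a departure of -1.64 ± 0.15. Chloroplast ribosomal proteins rose with light in both water states (34 and 28 of 42) and 2 were called on each side of the sum. The number below became 15 without the marked libraries and 9 in a fit with a term for the mark. None was above without CT replicate 3, any HL replicate, WS+HL replicate 1 or 2, or WS replicate 2.

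Genes that protect dried tissue mostly rose under water stress, and many of those called stood below the sum. Of 35 dehydration protection genes, 23 rose under water stress and 14 under high light in watered plants, and 13 were below and 4 above, with a median of -0.59 (-0.40 with the floor of 3 counts). The median was -1.01 without WS+HL replicate 2, and 2 were above without CT replicate 1. The dehydrin DHN, a protein that stabilizes membranes in drying cells, measured 292, 281 and 279 CPM in CT, 3409, 3322 and 3215 in WS, 684, 673 and 690.4 in HL and 2150.2, 2092 and 2027 in WS+HL. No groups overlapped, and WS+HL lay between HL and WS. High light raised it in watered plants (1.27 ± 0.09) and lowered it under water stress (-0.67 ± 0.09), a departure of -1.93 ± 0.12 (adjusted p = 2.43e-16). Stachyose synthase (LOC102611645, -2.66 ± 0.23), a galactinol-sucrose galactosyltransferase (LOC102622912, -1.23 ± 0.10) and galactinol synthase 1 (LOC102616851, -5.31 ± 0.54), which make raffinose-type sugars, were below. LEA5, a late embryogenesis abundant protein named after its values were seen, was above (1.53 ± 0.21).

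Of 48 genes of abscisic acid synthesis and signalling, 14 were below the sum (29.2%) and 6 above (12.5%). Of all tested genes 12.9% were below and 12.3% above, so only the lower side exceeded the background. Under water stress high light lowered 12 and raised 2, and in watered plants it raised 12 and lowered 12. Among the phosphatases that restrain the signal, protein phosphatase 2C 56-like (LOC102623733) was at -1.19 ± 0.09 and 2C 24 (LOC102611031) at -1.33 ± 0.11. The 8'-hydroxylases that inactivate the hormone split. CYP707A4 measured 5.37 ± 0.635 CPM in CT, 4.83 ± 0.529 in WS, 32.7 ± 2.16 in HL and 7.04 ± 0.255 in WS+HL and was below the sum (-2.06 ± 0.17). CYP707A1, named after its values were seen, measured 18.3 ± 3.08, 46.1 ± 1.93, 2.04 ± 0.566 and 33.1 ± 0.789 CPM in the same order and was above (2.68 ± 0.24).

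Aquaporins, the water channels, had 7 of 31 below the sum (22.6%) and 4 above (12.9%), beside 12.9% and 12.3% of all tested genes. The number above was 2 without WS+HL replicate 2 and 1 without WS replicate 1. The 4 with the lowest p-values, all of them plasma membrane intrinsic proteins, were below. PIP1-2 (LOC102628631) measured 42.6, 35.6 and 46.4 CPM in CT, 12.1, 13.7 and 12.2 in WS, 311, 288 and 339.7 in HL and 13.1, 12.1 and 12.1 in WS+HL. HL was high and WS and WS+HL overlapped below CT. Its departure was -2.94 ± 0.17 (adjusted p = 3.32e-17). PIP2-5 (LOC102622181, -0.99 ± 0.12) and 2 PIP2-2-like genes (LOC102608729, -1.26 ± 0.12; LOC102609769, -0.77 ± 0.11) rose under water stress and were lowered by light in that state.

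Single ethylene genes were among those furthest above the sum, while the list as a whole was near the background. Ethylene-responsive transcription factor 1B (LOC102611538) measured 4.004, 4.39 and 6.19 CPM in CT, 37.8, 40.4 and 40.8 in WS, 0.308, 0.595 and 0.725 in HL and 59.3, 62.9 and 56.1 in WS+HL. No groups overlapped, with HL lowest and WS+HL highest. Its departure was 3.77 ± 0.29 (adjusted p = 1.01e-13). Factor 1A (LOC102614159) measured 24.9, 19.4 and 31.4, 23.3, 23.2 and 22.4, 2.69, 4.11 and 4.18 and 36.4, 35.97 and 36.3 CPM in CT, WS, HL and WS+HL. Only HL was low, and CT overlapped WS. Its departure was 3.45 ± 0.30 (adjusted p = 4.82e-12).

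ETR2, an ethylene receptor, measured 17.7, 18.7 and 17.3 CPM in CT, 42.3, 50.8 and 47.7 in WS, 4.09, 4.54 and 4.66 in HL and 81.4, 99.7 and 95.7 in WS+HL. High light lowered it in watered plants and raised it under water stress, without overlap of any groups. Its departure was 2.99 ± 0.16 (adjusted p = 4.14e-19). EIN3-binding F-box protein 1 (LOC102607641), which marks the ethylene factor EIN3 for breakdown, did the same (-1.12 ± 0.10 in watered plants, 1.04 ± 0.10 under water stress, departure 2.16 ± 0.14). As a whole the 36 ethylene synthesis and signalling genes had 4 above (11.1%) and 5 below (13.9%), near the 12.3% and 12.9% of all tested genes, and the number below fell to 3 without CT replicate 3, HL replicate 2 or 3, WS+HL replicate 1 or WS replicate 2. Mitogen-activated protein kinase kinase kinase 18 (LOC102619746), an abscisic acid-induced kinase in Arabidopsis, measured 35.7 ± 6.57 CPM in CT, 26.1 ± 2.22 in WS, 5.81 ± 1.29 in HL and 42.5 ± 3.85 in WS+HL and was above the sum (3.31 ± 0.30).

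Of 38 jasmonate genes 8 were above the sum and 4 below. JAR1 (LOC102611440), which makes the active jasmonate conjugate, fell from 45.9 ± 2.47 CPM in CT to 26.9 ± 1.86 in HL and rose from 27.1 ± 2.499 in WS to 55.8 ± 2.28 in WS+HL, a departure of 1.81 ± 0.10. TIFY genes, repressors of jasmonate signalling, were found on both sides. TIFY 10A-like (LOC102616825, 3.3 ± 0.32) and TIFY 9 (LOC102630561, 1.67 ± 0.21) were above, and TIFY 10A (LOC102631355, -1.03 ± 0.11) was below. Among 105 auxin response genes 17 were above (16.2%) and 9 below (8.57%), against 12.3% and 12.9% of all tested genes. The ARGOS gene LOC102624985, an auxin-induced regulator of organ size in Arabidopsis, measured 21, 20.7 and 20.8 CPM in CT, 33.3, 32.03 and 29.5 in WS, 8.88, 8.79 and 7.67 in HL and 80.7, 81.2 and 78.2 in WS+HL. No groups overlapped, HL was lowest and WS+HL highest. Its departure was 2.64 ± 0.15 (adjusted p = 2.05e-17).

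Transcription factor families leaned to different sides. Of 99 ERF and DREB factors 32 were above the sum and 13 below (median 0.36), of 54 WRKY factors 19 and 5 (median 0.56), and of 93 MYB factors 18 and 2 (median 0.35, 0.12 to 0.23 without CT replicate 2, WS replicate 3 or any WS+HL replicate). Of 74 NAC factors 11 were above and 29 below (median -0.45, -0.28 without WS replicate 1 and -0.11 with no filter). In watered plants high light lowered 33 ERF and DREB, 22 WRKY and 29 MYB factors and raised 12, 6 and 7. Of all tested genes it lowered 18.0% and raised 17.7% there. Under water stress it lowered 9, 7 and 4 and raised 13, 6 and 12, beside 9.96% lowered and 10.2% raised of all tested genes.

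NAC transcription factor 29 (LOC102608057), whose Arabidopsis relative promotes leaf senescence, measured 19.2, 16.8 and 22.1 CPM in CT, 348, 325 and 332 in WS, 2.22, 2.24 and 2.18 in HL and 358, 369.7 and 361 in WS+HL. High light lowered it in watered plants and its WS+HL libraries lay just above those of WS. Its departure was 3.24 ± 0.15 (adjusted p = 5.57e-21). A NAC 71-like gene (LOC102621589) was raised by light in watered plants (3.74 ± 0.10) and measured 0.02 ± 0.09 under water stress, a departure of -3.73 ± 0.13. WRKY 53 (LOC102614924) was low only in HL, at 5.75 ± 0.212 CPM against 34.2 ± 5.25 in CT, 41.4 ± 3.77 in WS and 43.5 ± 0.671 in WS+HL, a departure of 2.64 ± 0.23. Of 2 genes described as WRKY 40, the first was below (LOC102626219, -2.41 ± 0.16) and the second above (LOC102616268, 1.78 ± 0.16). Dehydration-responsive element-binding protein 2A (LOC102610198), an activator of drought and heat genes in Arabidopsis, was below (-2.74 ± 0.17).

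Clock genes departed in both directions, 8 of 26 above and 7 below. The pseudo-response regulator APRR5 (LOC102631246), an evening repressor of the clock, measured 211, 214 and 193 CPM in CT, 432, 455 and 445 in WS, 30.7, 28.98 and 30.3 in HL and 341, 361 and 370.1 in WS+HL. No groups overlapped and only HL was low. Its departure was 2.46 ± 0.08 (adjusted p = 1.06e-25). The morning factor REVEILLE 1 (LOC102630458, -1.89 ± 0.08), phytochrome C (LOC102618478, -0.89 ± 0.06) and EARLY FLOWERING 3 (LOC102615318, -0.76 ± 0.07) were below. The hour at which each group was sampled is not given in the sources used here, and its part in these values was not tested.

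**Figure D4:**
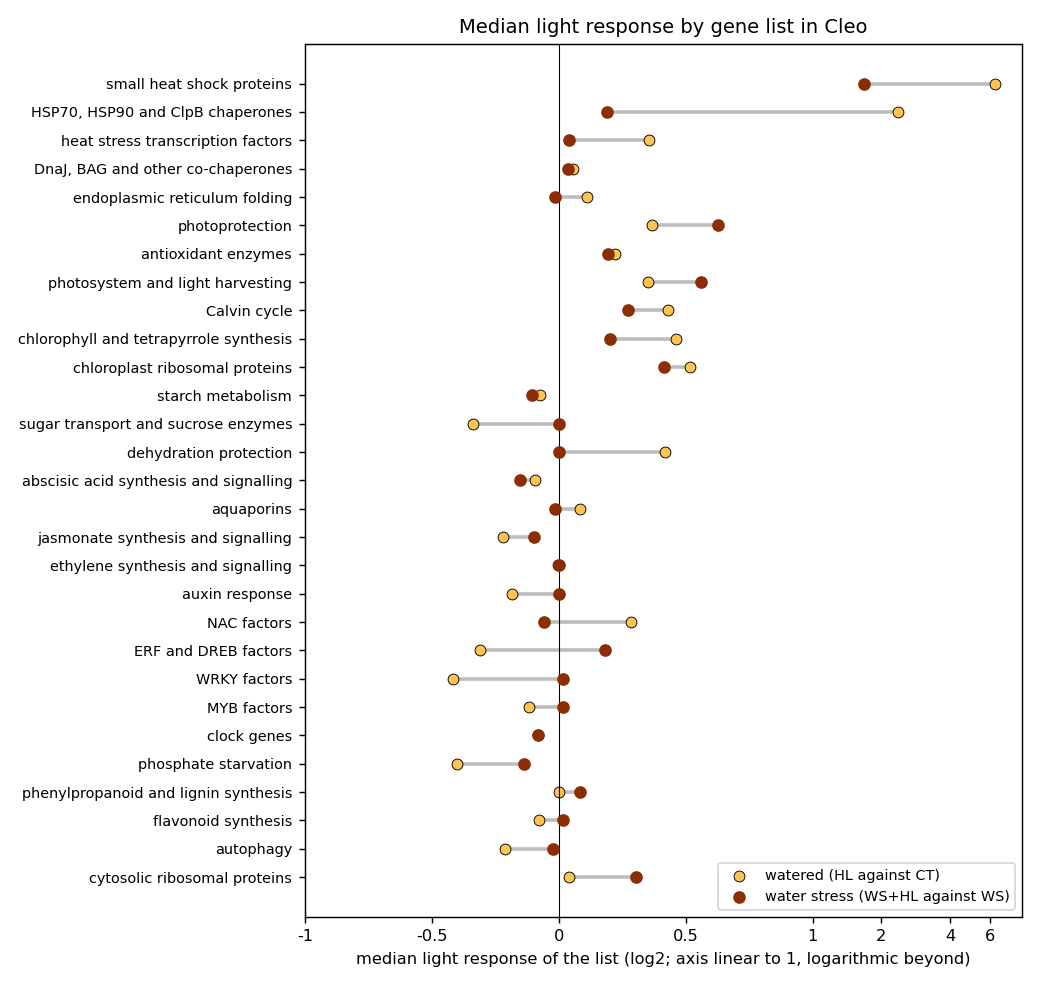
Median light response of each gene list in Cleo (log2, on an axis that is linear to 1 and logarithmic beyond), for watered plants in yellow and plants under water stress in dark red. The medians of small heat shock proteins move from 6.31 to 1.67 and those of HSP70, HSP90 and ClpB genes from 2.38 to 0.19, and points that coincide are drawn over each other.

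Sugar transport and phosphate starvation genes leaned above the sum. Of 75 sugar transport and sucrose genes 19 were above and 7 below (median 0.29). High light lowered 33 in watered plants and 13 under water stress. A sucrose synthase (LOC102616003), which splits sucrose in sink tissue, measured 1611 ± 12.6 CPM in CT, 342 ± 4.88 in WS, 645 ± 12.2 in HL and 347 ± 7.42 in WS+HL, a departure of 1.34 ± 0.12. Starch genes were even, 11 of 41 above (26.8%) and 10 below (24.4%), beside 12.3% and 12.9% of all tested genes. Granule-bound starch synthase 1 (LOC102625907, -1.69 ± 0.16) and beta-amylase 1 (LOC102626673, -1.07 ± 0.11), which make and break starch in turn, were both below. Of 59 phosphate starvation genes 16 were above and 6 below. SPX domain protein 1 (LOC102629287), a phosphate sensor, was lowered by light from 116 ± 16.6 to 17.1 ± 0.308 CPM in watered plants and from 64.4 ± 3.88 to 46.2 ± 2.198 under water stress (2.28 ± 0.13).

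Phenylpropanoid and lignin genes had 23 of 125 above and 6 below, and the number below rose to 10 or 11 in some of the other fits. A cinnamoyl-CoA reductase-like gene (LOC102613331, 1.32 ± 0.14) and a caffeoyl-CoA O-methyltransferase-like gene (LOC102617232, 1.2 ± 0.17), enzymes of lignin precursors, were above. Flavonoid genes were less one-sided, 11 of 64 above (17.2%) and 7 below (10.9%), beside 12.3% and 12.9% of all tested genes. Of 154 cell wall loosening and pectin genes 20 were above (13.0%, near the 12.3% of all tested genes) and 8 below, and 13 were above without WS+HL replicate 3. Expansin-like A1 (LOC102629326) dropped from 7.86 ± 1.97 CPM in CT to 0.978 ± 0.508 in HL and was 28.7 ± 0.579 in WS and 21.7 ± 2.57 in WS+HL, a departure of 2.59 ± 0.26.

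Cytosolic ribosomal protein genes called up under high light numbered 98 of 159 under water stress and 21 in watered plants. Median light responses over the list were 0.30 and 0.04 (log2), and 10.2% and 17.7% of all tested genes were raised, in the same order. These counts were not tested with libraries left out. The departure, which compares the water states directly, was not called for 127 of the 159. In WS+HL 30 were higher than in each other treatment. Departures were called for 31 above and 1 below (median 0.24), but the number above was unstable: 6 without CT replicate 3 (median 0.09), 16 without WS+HL replicate 1, 18 without WS replicate 2, 61 without CT replicate 2, 14 in a fit of the 12 libraries alone and 17 without the marked libraries. CT replicate 3 was also the library with the most ribosomal RNA. The value without it also rests on fewer libraries, so its own part in this count was not tested. The 40S protein S24-1 (LOC102627216, 0.67 ± 0.14) had the lowest p of the list. Of 23 autophagy genes 7 were above (30.4%) and 1 below (4.35%), beside 12.3% and 12.9% of all tested genes. The number above was 2 to 4 when CT replicate 3, HL replicate 3, WS+HL replicate 1 or WS replicate 2 was left out.

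Some genes turned their light response around. High light raised 307 genes in watered plants and lowered them under water stress, and it lowered 316 and raised them. The sum of these counts, 623, fell to 354 without WS+HL replicate 1 and to 361 without WS replicate 2. The genes given here were chosen after their values were seen, as those with the largest smaller response of each pair. Ferritin-3 (LOC102626899), an iron store of the chloroplast, rose by 0.91 ± 0.07 (log2) in watered plants and moved by -0.77 ± 0.06 under water stress. A lipase (LOC102618360) moved by 0.72 ± 0.07 and -0.64 ± 0.07, and beta-glucosidase 40 (LOC102626910) by 0.69 ± 0.11 and -0.85 ± 0.10. In the other direction, carboxylesterase 15 (LOC102631454) moved by -1.9 ± 0.20 and 1.2 ± 0.19, a wound-induced proteinase inhibitor (LOC102630850) by -1.24 ± 0.25 and 1.31 ± 0.25, and the amino acid transporter AVT6C (LOC102628569) by -0.99 ± 0.17 and 1.55 ± 0.21.

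The combination took 741 genes above each of CT, WS and HL (3.12%) and 778 below each (3.28%). Without WS+HL replicate 1 these became 445 and 432, without WS replicate 2 426 and 466, and without the marked libraries 1260 and 1191. Asparagine synthetase 1 (LOC102628580), which stores nitrogen as asparagine, measured 18.8, 17.6 and 16.3 CPM in CT, 98.04, 93.3 and 88.9 in WS, 11.5, 10.6 and 11.2 in HL and 311, 298 and 285 in WS+HL. No groups overlapped and WS+HL was highest. Its departure was 2.34 ± 0.18 (adjusted p = 1.79e-13).

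Leaving the range of the other treatments did not require a departure above the sum. Laccase-7-like (LOC102627565), of a family that joins lignin units, was highest in WS+HL at 733 ± 7.13 CPM but stood below its sum (-3.71 ± 0.66), since WS (211 ± 44.4) and HL (14.1 ± 9.63) each lay far above CT (0.295 ± 0.174). Among genes lower than in each other treatment, the ABC transporter G32 gene (LOC102631050), whose Arabidopsis relative exports cutin precursors, measured 40.9 ± 13.5 CPM in CT, 11.3 ± 0.445 in WS, 41.1 ± 3.04 in HL and 6.01 ± 0.844 in WS+HL. Its departure was -0.91 ± 0.31, and the call was lost when some single libraries were left out. The aspartyl protease LOC102619810 measured 4.66 ± 0.627 CPM in WS+HL and its departure of -0.55 ± 0.27 was not called (adjusted p = 0.132).

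Sorted by what the single stresses did, the called departures mostly lay opposite to the light response of watered plants. The single stresses share libraries with the departure, so these counts are a description. Where both stresses raised a gene, 1264 departures were below the sum and 2 above. Where both lowered it, 929 were above and 4 below. Where water stress raised and light lowered a gene, 772 were above and 6 below. Where water stress lowered and light raised it, 636 were below and 28 above. Where only light was called, 417 of the genes it raised were below the sum and 2 above, and the 409 it lowered that departed were above. In these classes of over 100 genes the median combined change stayed near that of water stress alone, for example 0.92 against 0.95 (log2) for the 1264 and 0.92 against 0.87 for the 772. Where only water stress was called, 388 of the genes it raised were below the sum and 158 above, and 462 of those it lowered were above and 166 below. The 388 became 242 and the 166 became 109 without WS+HL replicate 1, the 158 and 166 became 103 and 99 without WS replicate 2, and the 462 became 301 without CT replicate 3.

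Departures beyond the sum were few where both stresses moved a gene the same way. Of the 2 genes raised by both stresses and above the sum, the named one is a naringenin 3-dioxygenase-like gene of flavonoid synthesis (LOC102617426), which measured 6.55 ± 2.75 CPM in CT, 31.4 ± 1.06 in WS, 8.81 ± 0.482 in HL and 79.6 ± 3.41 in WS+HL (0.92 ± 0.21). Among the 4 lowered by both and below the sum were a LEUNIG_HOMOLOG-like corepressor (LOC102618050, -0.56 ± 0.20), the cellulose synthase subunit CESA2 (LOC102619086, -0.41 ± 0.12) and a TCP4-like factor (LOC102619329, -0.4 ± 0.11), a class that restrains leaf growth in Arabidopsis. The corepressor's call was lost when some single libraries were left out.

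Neither stress alone was called for 156 genes above the sum and 179 below. Without WS+HL replicate 1 they numbered 103 and 116, and 90 were above without CT replicate 3. A glycerol-3-phosphate transporter (LOC102630400) measured 91.1, 94.5 and 85.3 CPM in CT, 83.4, 90.3 and 84.8 in WS, 85.3, 83.7 and 78.5 in HL and 42.8, 49.6 and 46.2 in WS+HL. CT, WS and HL overlapped and WS+HL was low. Its departure was -0.77 ± 0.13 (adjusted p = 1.03e-05). An anthranilate N-methyltransferase-like gene (LOC102627175), of a citrus alkaloid route, was high only in WS+HL, at 19.1 ± 1.08 CPM against 8.07 ± 1.91 in CT, 8.47 ± 0.248 in WS and 8.94 ± 0.577 in HL (1.02 ± 0.26).

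In whole leaves, fewer cells of a type and less RNA per cell cannot be told apart. Summed over 90 dividing cell markers, the level was 2214 to 2671 CPM in CT, 2981 to 3304 in WS, 2282 to 2354 in HL and 3475 to 3697 in WS+HL. Vascular markers (25) summed to 468 to 610, 357 to 368, 510 to 528 and 428 to 452 CPM in the same order, epidermal markers (11) to 244 to 407, 257 to 269, 292 to 328 and 259 to 262, and guard cell markers (21) to 38.9 to 62.2, 54.5 to 60.2, 50.6 to 53.9 and 52.98 to 55.2. Departures above and below the sum were called for 10 (11.1%) and 7 (7.78%) dividing and 5 (20%) and 1 (4%) vascular markers. Of all tested genes 12.3% were above and 12.9% below. No epidermal marker was called, and 1 guard cell marker was, above the sum. Of the 21 guard cell markers 12 had at most 3 counts in a group and 5 had none in the 12 libraries, so their few calls say little. No epidermal marker passed an unadjusted p of 0.05 in edgeR (0), and DESeq2 called 1 above and 0 below. Without the marked libraries 5 of the 11 were above. The part of cell makeup in the departures was not tested.

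In Carrizo citrange fewer genes were called with all libraries, an order that single libraries set. There 2053 genes were above the sum (8.65%) and 2248 below (9.48%), together 18.1%, and the departure itself differed between the genotypes for 3933 genes (16.6%), with Cleo higher for 1875 (7.9%) and lower for 2058 (8.68%). The number above in Car ranged from 1311 without CT-Car replicate 3 to 3455 without HL-Car replicate 1, where 3302 were below and the calls outnumbered those of Cleo, and was 1320 and 1340 without HL-Car replicates 2 and 3. Differences between the genotypes come from the test of Cleo minus Car.

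Heat shock genes were below the sum in both genotypes and deeper in Cleo. Of 33 small heat shock proteins 24 were below in Car with a median of -1.83, against -4.04 in Cleo and 19 had a lower departure in Cleo by the test of the difference. Of 26 HSP70, HSP90 and ClpB genes 20 were below in Car (median -0.80) and 18 had a lower departure in Cleo. For heat shock 70 kDa protein 5-like (LOC102625591) the departure was -1.82 ± 0.25 in Car, a difference of -6.75 ± 0.36 (adjusted p = 4.71e-18). For ClpB1 (LOC102620452) it was -2.05 ± 0.10 in Car, a difference of -3.52 ± 0.14. Chlorophyll synthesis genes had 11 of 20 above the sum in Car (median 0.37), and the departure was lower in Cleo for 13. Aquaporins had 9 of 31 above in Car (median 0.51 against -0.31 in Cleo), and the departure was lower in Cleo for 10. The Cleo median was -0.13 to -0.21 without CT replicate 2, WS replicate 3 or WS+HL replicate 2 or 3, and -0.17 with the floor of 3 counts. For PIP1-2 (LOC102628631) the departure in Car was 0.00 ± 0.16, a difference of -2.95 ± 0.24.

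The WRKY, ERF and jasmonate genes leaned the other way in Car. There 21 of 54 WRKY factors were below the sum and 2 above (median -0.57), and the departure was higher in Cleo for 21 and lower for 1. Of 99 ERF and DREB factors 23 were below and 8 above in Car, and 26 were higher in Cleo and 3 lower. Of 38 jasmonate genes 16 were higher in Cleo and 3 lower. WRKY 53 (LOC102614924) departed by 2.64 ± 0.23 in Cleo and -3.83 ± 0.24 in Car, a difference of 6.47 ± 0.33 (adjusted p = 2.45e-18). For TIFY 5A-like (LOC102609610) the departures were 1.8 ± 0.28 and -4.24 ± 0.30, and for glutamate receptor 3.6-like (LOC102611032), of a channel family that carries wound signals in Arabidopsis, 1.12 ± 0.29 and -4.77 ± 0.34. The departure of ETR2 was not called in Car (0.27 ± 0.16, adjusted p = 0.274), a difference of 2.72 ± 0.23 (adjusted p = 2.62e-12). Asparagine synthetase 1 (LOC102628580) was below the sum in Car (-1.99 ± 0.24) and above it in Cleo, a difference of 4.33 ± 0.30 (adjusted p = 1.82e-14).

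**Figure D5:**
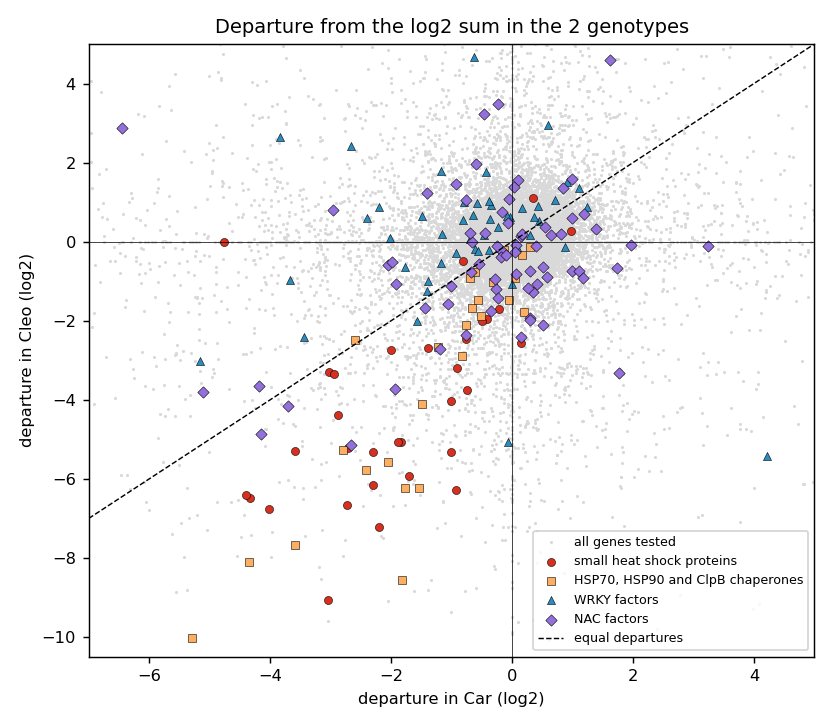
Departure from the log2 sum of each tested gene in Car (horizontal) and Cleo (vertical), both in log2, with 407 genes outside the axes. Heat shock genes lie mostly below the line of equal departures, with medians of -4.04 in Cleo and -1.83 in Car for the small heat shock proteins, and WRKY factors have medians of 0.56 and -0.57.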

How the data were processed

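Leaf RNA, extracted with a Maxwell kit, went into stranded mRNA libraries, per the labels' protocols. The tools, per the submitters' processing notes, were StringTie 2.1.3b, HISAT2 2.1.0 and FastQC 0.11.7. The deposited table's title names the sweet orange assembly Csi_valencia_1.0. Not given in the sources used here are how reads with several alignments were treated and the strand setting. The table deposited by the authors gives 30136 genes with a raw read count for each library, per the file headers. It also holds FPKM and TPM values, deposited by the authors and not used in any test. The counts are whole numbers, but StringTie derives them from coverage, so they can be rounded estimates. Gene names come from that table, and coordinates and sequences are not used here.

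Tests on the counts used edgeR 4.0.16 under R 4.3.3. filterByExpr over the 16 groups kept 23721 genes, libraries were scaled by TMM, and all 48 libraries entered 1 quasi-likelihood model of the 16 group means (32 residual degrees of freedom, common biological coefficient of variation 11.2%). Benjamini-Hochberg adjustment was made within each of 8 comparisons over all genes tested, with calls below 0.05. An SE is the absolute log2 change divided by the square root of the F statistic, and a 95% interval is 1.96 SE each way. CPM use the TMM-scaled library total, and log2 CPM used a prior count of 2. Where a group holds no more than 3 counts of a gene, the prior count moves its fitted change. On counts simulated from these libraries, 48 of 50 genes with a departure of 2 (log2) were called in Cleo. With a departure of 1 it was 40 of 50, with -1 it was 34 of 50, and of genes with none 17 of 21544. The changed genes were drawn from those with a mean of at least 50 counts, and no library was simulated as standing apart. Recovery among weaker genes, or with a library like CT replicate 3, was thus not tested.

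The 41 gene lists are matched by words in gene descriptions, a gene can stand in several, and a description can be wrong. The members and lists were chosen with earlier results of these data known. Genes were named by a rule: among called genes with a description, a mean log2 CPM of at least 3 and over 3 counts in each group, the 8 furthest above and 8 furthest below the sum, the 3 largest of each class of single-stress calls and the 3 largest genotype differences each way. Also named were up to 4 called members of a list with the lowest p, and the 4 furthest beyond the other treatments each way. Alternatives were DESeq2 1.42.0 (Wald test, and its size factors alone), no filter, only the libraries compared, a replicate block, each library left out in turn, no marked libraries, the mark as a term, and no ribosomal RNA or chloroplast genes. No pairing of samples by replicate number was visible. Deviations from group means of same-numbered Cleo libraries correlated at -0.0575 to 0.0888, and those of different numbers at -0.0828 to 0.109.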

Additional observations from a re-analysis of the deposited data

Results flagged for a closer look

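The departure differed between Cleo and Car for 3933 genes by the test of the difference, and 6 genes with the largest differences are listed here as values. The difference, Cleo minus Car on the log2 scale, was 6.47 for WRKY 53 (LOC102614924), 6.04 for TIFY 5A-like (LOC102609610) and 5.89 for glutamate receptor 3.6-like (LOC102611032). It was -6.75 for heat shock 70 kDa protein 5-like (LOC102625591), -5.37 for the 18.2 kDa class I heat shock protein (LOC102621053) and -5.02 for the small heat shock protein gene LOC102630544. For the first 3 the departure was above the sum in Cleo and below it in Car. For the heat shock genes it was below the sum in both genotypes. Groups of 3 libraries were not tested for a single outlying value.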

How the results depend on the processing

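No named gene reversed its direction under any alternative run, but the larger side of the calls turned with DESeq2's scaling. The count of called departures in Cleo, 2918 above and 3060 below, became 3128 and 2833 with DESeq2's size factors in edgeR and 3447 and 3131 with DESeq2's own test. The genotype difference, higher in Cleo for 1875 and lower for 2058, became 2048 and 1850, and 2382 and 2156. The called departures in Cleo became 2815 above and 2937 below with no filter, and 2763 and 2998 in a fit of the 12 libraries. They became 3043 and 3280 with the mark as a term, and 2855 and 3116 without ribosomal RNA and chloroplast genes. No pairing by replicate number was visible here. With the number as a block, 2907 genes were above and 3059 below in Cleo, and 5819 of the 5978 calls were kept. Asking also for a 2-fold size left 882 and 971. Without the marked libraries 3546 genes fell under light in water-stressed plants, 1260 and 1191 lay above and below all other treatments, and 3136 had light responses of the same direction in both water states. The checks covered 204 results of named genes, each the departure in Cleo or the genotype difference of a gene. Of these, 11 changed their call under these alternatives and 16 when single libraries were left out, with no change of direction.

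Leaving out 1 library at a time gave these lowest and highest counts. Departures above the sum numbered 2258 to 3171 in Cleo and 1311 to 3455 in Car. Under light in water-stressed plants 1550 to 2614 genes rose and 1335 to 2560 fell. Beyond all other treatments 426 to 866 were higher and 432 to 860 lower. Light responses called under water stress alone numbered 1307 to 2560 and those of opposite direction 354 to 695. Of departures with neither stress called, 90 to 208 were above and 116 to 234 below the sum. With only water stress called, the ranges were 301 to 537 above and 99 to 180 below for genes it lowered, and 103 to 176 above and 242 to 450 below for genes it raised. The cause of these changes was not tested, beyond the smaller number of libraries. Counts at 3 libraries a group limit what can be shown: at a simulated departure of -1 (log2), 34 of 50 genes were called. Intervals and counts cover the spread between these libraries only.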
